A study of Mus musculus with 8 samples.

Results

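The matrix metalloproteinases (MMPs), the ADAM and ADAMTS proteases and the tissue inhibitors of metalloproteinases (TIMPs) were followed in mouse lung after pneumonectomy. Members were taken by name, as every gene whose symbol is Mmp, Adam, Adamts or Timp with a number and at most 1 letter and which has a probe set annotated to that symbol alone. The rule gave 65 genes of the 18193 genes on the array, of which 18 were Mmp, 28 Adam, 15 Adamts and 4 Timp genes. They are measured by 116 probe sets, and where a gene has several, the one brightest on average over the arrays stands for it. Adamts2, which the study lists as higher after pneumonectomy, is not among the genes with a probe set of their own symbol alone and was not analysed here.

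MMPs are secreted or membrane-bound zinc proteases that cut collagens, elastin, basement membrane and other proteins of the extracellular matrix. ADAMs sit in the cell membrane and release growth factors, cytokines and receptors from the cell surface, and many of them act only in sperm. ADAMTSs are secreted, carry thrombospondin repeats, and cut proteoglycans such as versican and aggrecan or trim procollagens. TIMPs bind the active site of these enzymes and block it, and the balance between both sides is a textbook theme of alveolar formation, emphysema and lung fibrosis.

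Lung was taken from adult female C57BL/6 mice, 10 to 12 weeks old, after removal of the left lung (pneumonectomy, PNY) or after a sham thoracotomy without resection (SHAM), at 6 hours and at 1, 3 and 7 days. All mice of both groups were anesthetized, ventilated, given ampicillin and treated with buprenorphine as needed, and their lungs were perfused before RNA was made. Equal amounts of lung tissue from 8 mice were pooled for each array, and there was 1 array per surgery and time point, 8 arrays in all. The values are log2 expression levels, so a difference of 0.58 is a fold change of 1.5. An array gives the mean of its pool, the 4 times stand in for replicates of each surgery, and no p-value here measures the spread between mice.

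The lung markers stood high on every array. The mean level of 7 lung epithelial genes (Sftpc among them) lay between 13.17 and 13.34 in PNY and between 13.18 and 13.27 in SHAM. A few arrays stood apart in markers of other tissues. The mean of 6 thymocyte genes was 8.06 in PNY at 1 day and lay between 5.37 and 5.89 on the other 7 arrays. The mean of 7 macrophage genes typical of body cavities was 8.18 in SHAM at 7 days, against 6.27 to 7.19 elsewhere, and the mean of 7 atrial and skeletal muscle genes was 7.15 on that array, against 8.05 to 8.66 elsewhere. In lung tissue as a whole, fewer cells of a type and less RNA per cell cannot be told apart.

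Of the 65 members 33 lay above the median level of all probe sets, 5.92 (50.8%, against 66.8% of all genes). These were 10 of 18 Mmp, 12 of 28 Adam, 7 of 15 Adamts and all 4 Timp genes. The sperm ADAMs Adam2, Adam3 and Adam18 lay among the low ones, while Adam4, a testis gene in mice, lay above the median. A level below the median is not proof that a gene was silent, since no detection call was used.

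Over the 4 time points the members as a group stood slightly on the PNY side. The median of their mean differences (PNY minus SHAM) was 0.07, beside 0.01 for all genes, and it was 0.10 for the 18 Mmp genes, 0.01 for the 28 Adam genes, 0.09 for the 15 Adamts genes and 0.03 for the 4 Timp genes. PNY lay above SHAM at each of the 4 time points for 11 members (16.9%), a pattern shown by 9.36% of all genes. These were Mmp2, Mmp11, Mmp14, Mmp17, Mmp19, Adam3, Adam17, Adamts1, Adamts3, Adamts9 and Adamts12. Of them Mmp17, Adam3, Adamts3 and Adamts12 lay below the median level. By another of their probe sets the pattern did not hold for Mmp2, Mmp14, Adam17, Adamts3, Adamts9 and Adamts12. PNY lay below SHAM at each time point for 1 member, Adam34, a pattern shown by 5.94% of all genes.

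By the rank product test over the 16 pairs of a PNY and a SHAM array (P under 0.001, and PNY and SHAM at least 1.5-fold apart), 0 of the 65 members were called higher in PNY and 0 lower. Of all genes 0.5% were called higher in PNY and 0.0605% lower. With limma, 0 of all 45037 probe sets passed an adjusted p of 0.05, either without a block or with time point as a block. At an unadjusted p under 0.05 with the block, 11 of 65 members lay higher in PNY and 0 lower (16.9%, against 5.9% of all genes in either direction), and without it 5 did (7.69%, against 2.17%). The PNY and SHAM arrays did not overlap for 2 members, Adamts9 and Mmp2, both higher in PNY, as was the case for 0.857% of all genes. By the other probe sets of these 2 genes the groups did overlap. No member lay lower in PNY without overlap, as 0.726% of all genes did.

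**Figure D1:**
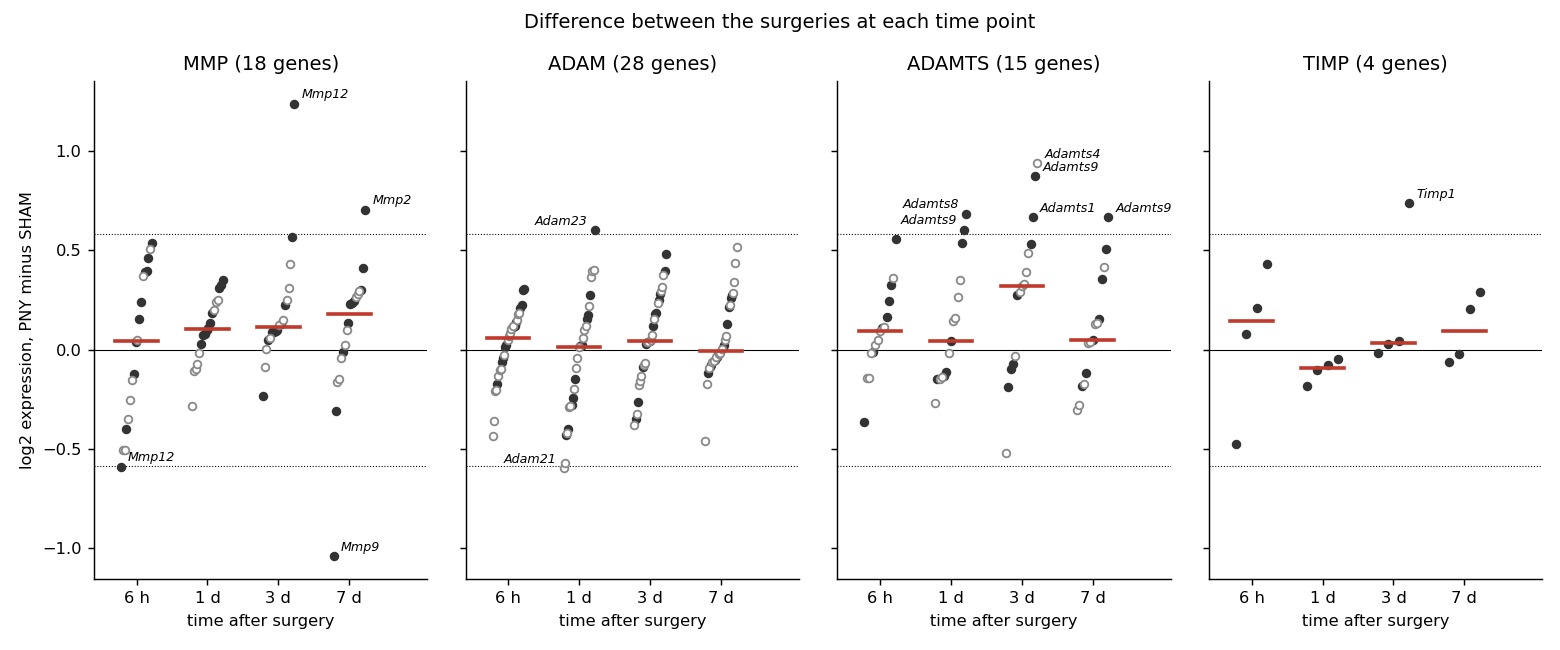
PNY minus SHAM in log2 expression for each of the 65 members at 6 hours, 1, 3 and 7 days, by subfamily. Each point is 1 gene at 1 time point, filled above and open below the median level of 5.92, red bars are medians, dotted lines mark a fold change of 1.5, and genes past it are named. At 3 days 5 members lie above the upper line, among them Mmp12 at 1.24 and Adamts4 at 0.94, and at 7 days Mmp9 lies lowest at -1.04.

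At single time points, with 1 array per surgery and therefore no test, few members differed by 1.5-fold. At 6 hours 0 members were that much higher in PNY (0.682% of all genes) and 1 was lower, Mmp12 (1.04% of all genes). At 1 day Adam23, Adamts8 and Adamts9 were higher (1.88% of all genes) and Adam21, a low-level gene, was lower (1.09% of all genes). At 3 days 5 were higher, namely Adamts1, Adamts4, Adamts9, Mmp12 and Timp1 (1.14% of all genes), and 0 were lower (0.511% of all genes). At 7 days Adamts9 and Mmp2 were higher (1.98% of all genes) and Mmp9 was lower (1.48% of all genes). The 3-day count was 7.69% of the members. By its brightest probe set Adamts9 was past this fold at 3 of the 4 time points, but it was not at 1 day once the arrays were centred on their medians, nor at 1 and 7 days once its probe sets were averaged.

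Among the MMPs, the gelatinase Mmp2, which cuts denatured collagen and basement membrane collagen, stood out at the late times. In order of time from 6 hours to 7 days, its level in PNY was 9.91, 9.85, 10.18 and 10.54, against 9.76, 9.72, 9.61 and 9.84 in SHAM, an order kept for all genes. Every PNY array lay above every SHAM array, though PNY at 1 day barely exceeded SHAM at 7 days, and within a time point PNY was higher by 0.57 at 3 days and by 0.71 at 7 days. The mean difference was 0.39 ± 0.29 (SD of the differences, n = 4), a fold change of 1.31, with an exact permutation p of 0.0286 (two-sided), the smallest that 4 against 4 arrays can give, and a rank product P of 0.00767. Without the PNY array of 7 days it was 0.25. A second Mmp2 probe set, at a mean level of 9.78 against 9.93, gave 0.11, -0.10, 0.41 and 0.79 at the 4 times. It too differed mainly at 3 and 7 days, but its groups overlap, with an exact permutation p of 0.143.

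Mmp14, the membrane-type enzyme that activates the Mmp2 proenzyme, differed little but evenly. It measured 9.05, 9.31, 9.47 and 9.35 in PNY from 6 hours to 7 days, against 8.81, 8.99, 9.25 and 9.12 in SHAM. PNY was higher at each time by 0.22 to 0.33, a gap smaller than the change over time within either surgery, so the groups overlap. The mean difference was 0.26 ± 0.05 (SD, n = 4), with an exact permutation p of 0.114 that takes the arrays as unpaired, and limma with a block for time had an adjusted p of 0.889 (0.0119 unadjusted). A second Mmp14 probe set gave the same mean difference, 0.26, and the dimmest gave -0.04. The mean of 10 fibroblast genes, cells known to make both enzymes, was 9.65, 9.79, 9.95 and 10.03 in PNY and 9.52, 9.79, 9.92 and 9.89 in SHAM, and its part in these results was not tested.

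Mmp12, the elastase of macrophages, had the difference between the surgeries that varied most over the time points in the family. It lay at 5.58, 5.95, 7.73 and 7.09 in PNY, against 6.17, 5.64, 6.49 and 6.68 in SHAM. PNY was lower at 6 hours by 0.59, higher at 3 days by 1.24 (a fold change of 2.36) and higher by 0.31 and 0.41 at 1 and 7 days. The mean difference, 0.34 ± 0.75 (SD, n = 4), was smaller than its spread, and without the PNY array of 3 days it was -0.04. The rank product P was 0.00123. The mean of 9 alveolar macrophage genes was 9.51, 9.03, 9.36 and 9.33 in PNY and 9.27, 9.20, 9.47 and 9.34 in SHAM. That of 8 monocyte and interstitial macrophage genes was highest at 3 days in PNY, at 8.94, 9.21, 9.47 and 9.26, against 8.92, 9.20, 9.45 and 9.62 in SHAM. The mean of 7 cavity (serosal) macrophage genes was 6.27, 6.43, 6.98 and 6.31 in PNY and 6.62, 6.63, 7.19 and 8.18 in SHAM, also highest at 3 days in PNY. The part of these cells in the Mmp12 values was not tested.

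Mmp9, the gelatinase of neutrophils and macrophages, measured 8.42, 8.30, 7.88 and 7.32 in PNY and 7.96, 7.94, 7.83 and 8.36 in SHAM. PNY was the higher at 6 hours and 1 day, the surgeries were level at 3 days, and at 7 days PNY was the lowest of all 8 arrays while SHAM was the second highest. The difference at 7 days was -1.04, a fold change of -2.06, and -1.28 by the other Mmp9 probe set. The mean of 10 neutrophil genes (of 12 listed) parted the same way at 7 days, at 9.17, 8.81, 8.67 and 8.12 in PNY against 8.98, 8.58, 8.56 and 8.70 in SHAM, and its part in the Mmp9 values was not tested. At 7 days 6 of these 10 genes were at least 1.5-fold lower in PNY and 1 was that much higher, with a median difference of -0.67. Among the lower ones, S100a8 was 10.85 in PNY and 12.61 in SHAM, the array that also stood apart in muscle and cavity macrophage genes.

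The PNY effect at 3 and 7 days was set against that at 6 hours and 1 day as a difference of differences. With limma 0 of all probe sets passed an adjusted p of 0.05, and 1246 had an unadjusted p under 0.05. Among the members 3 did (4.62%, against 2.46% of all genes): the PNY effect was larger late for Mmp12 by 0.96 and for Mmp7 by 0.49, and smaller late for Mmp9, at -0.90. Mmp7, a small secreted MMP of epithelia known as matrilysin, lay just below the median level and is named here after its value was seen.

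**Figure D2:**
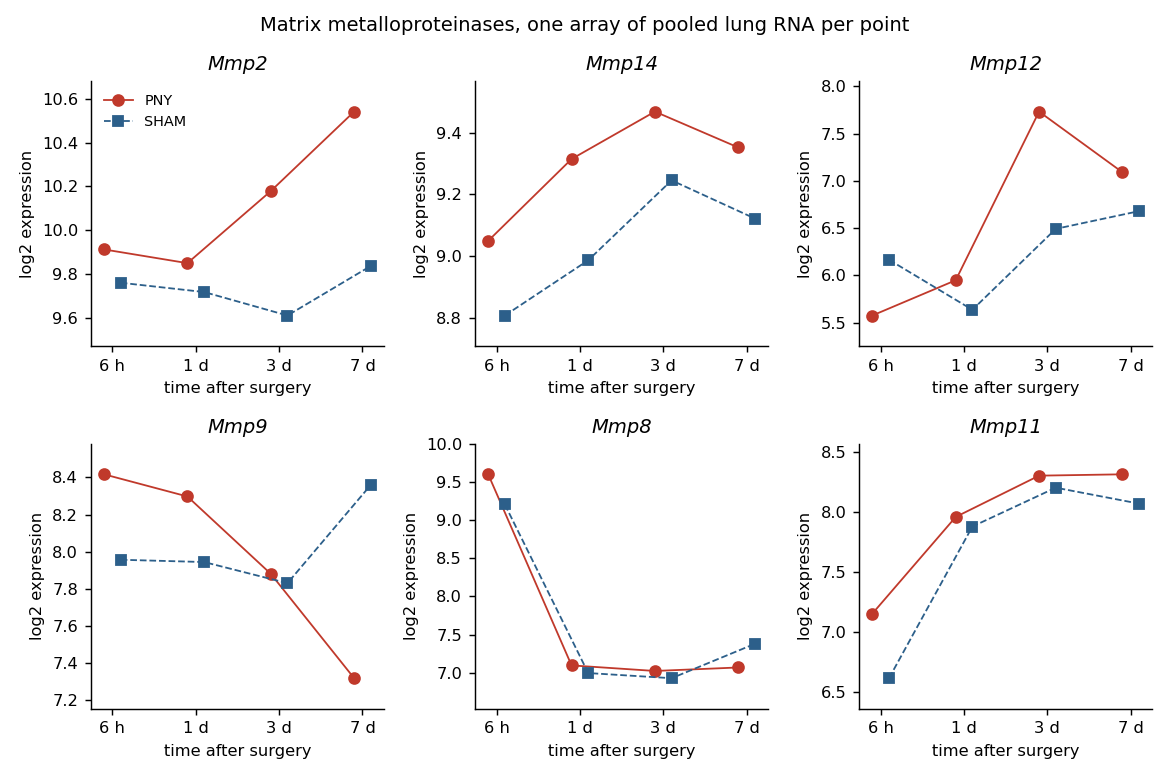
Log2 expression of 6 MMP genes (y axis, own scale in each panel) against time after surgery. Red circles are PNY and blue squares SHAM, each point 1 array of lung tissue pooled from 8 mice. Mmp2 and Mmp14 lie higher in PNY at each time, Mmp12 peaks at 7.73 in PNY at 3 days, Mmp9 parts at 7 days, and Mmp8 and Mmp11 follow time in both surgeries.

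The MMP genes measured include a row of 9 neighbours on mouse chromosome 9, in the order Mmp13, Mmp12, Mmp1b, Mmp3, Mmp1a, Mmp10, Mmp8, Mmp20 and Mmp7, with Mmp27 (not analysed here) between Mmp8 and Mmp20. AP-1, the Fos and Jun transcription factor, is known to act on several collagenase and stromelysin promoters of this cluster through the letters TGAGTCA, which read TGACTCA on the other strand. These letters were searched in the 250 bases before each gene start of the RefSeq mouse promoters (GRCm38.p6), where 4.46% of 32851 promoters hold them. They stand in 7 of the 10 cluster genes, and in 1 other member of the 37 found in that table, Adam19. The matches are shown because they are what these neighbours share in sequence, 5′ to 3′ on each gene's strand, with the AP-1 letters in capitals and 15 bases on either side:
Mmp13, chr9:7272464-7272500, plus strand: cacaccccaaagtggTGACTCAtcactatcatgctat
Mmp12, chr9:7347315-7347351, plus strand: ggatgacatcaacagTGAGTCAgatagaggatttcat
Mmp1b, chr9:7388098-7388134, minus strand: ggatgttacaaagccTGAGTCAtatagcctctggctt
Mmp3, chr9:7445761-7445797, plus strand: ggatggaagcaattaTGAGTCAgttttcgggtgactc
Mmp1a, chr9:7464053-7464089, plus strand: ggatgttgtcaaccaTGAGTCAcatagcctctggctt
Mmp10, chr9:7502264-7502300, plus strand: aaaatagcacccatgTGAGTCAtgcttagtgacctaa
Mmp7, chr9:7692012-7692048, plus strand: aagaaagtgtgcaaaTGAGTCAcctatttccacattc

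The first capital lies between 35 bases (Mmp13) and 93 bases (Mmp1b) before the gene start. For Mmp12 the match belongs to 1 of its listed starts. These 7 neighbours did not share 1 course in the lung. Mmp12 had the peak at 3 days described above. Mmp3, stromelysin 1, lay at 9.02, 8.76, 8.21 and 8.40 in PNY and at 8.63, 8.73, 8.44 and 8.17 in SHAM, highest at the early times in both, with a mean difference of 0.10 ± 0.27 (SD, n = 4). The other 5 lay below the median level, and Mmp1a and Mmp1b stayed at or below 3.28 on all arrays. Mmp8, the cluster gene with the widest range over the arrays, has none of these letters in that window. A match is only a description of the letters, and no binding was measured.

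Among the 28 ADAMs no gene stood apart between the surgeries. The 4 with the widest mean differences above the median level were Adam23, Adam9, Adam28 and Adam11. Adam23, which lacks protease activity and is best known from the nervous system, measured 6.30, 6.47, 6.29 and 6.08 in PNY against 6.09, 5.87, 5.81 and 6.14 in SHAM. PNY was the higher at the first 3 times and the groups overlap, with a mean difference of 0.31 ± 0.29 (SD, n = 4) and a rank product P of 0.0218. Its 2 dimmer probe sets gave -0.08 and -0.17, against the direction of the brightest.

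Adam9, a widely expressed sheddase, had a mean difference of 0.18 ± 0.22, with PNY lower at 1 day only. Adam28, known from lymphocytes, had one of -0.15 ± 0.29, and Adam11, a relative without protease activity, one of 0.13 ± 0.25 (SD, n = 4 for each). Each of these means was within or near the spread of its own 4 differences. At single times Adam4, a testis gene of the family in mice, was at the low end at 1 day with -0.43, and Adam33, linked to asthma in humans, at 3 days with -0.26. Adam10 and Adam17, the main sheddases of the cell surface, had mean differences of 0.07 ± 0.09 and 0.09 ± 0.08 (SD, n = 4).

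The widest mean differences over the 4 times were those of 2 ADAMTSs, although at single times Mmp12 and Mmp9 differed more. Adamts9, a versican-cutting protease, measured 8.79, 8.75, 8.93 and 9.27 in PNY, against 8.68, 8.14, 8.05 and 8.60 in SHAM. The lowest PNY array (1 day) lay narrowly above the highest SHAM array (6 hours), and within a time point PNY was higher by 0.11, 0.60, 0.87 and 0.67. On average PNY lay above SHAM by 0.56 ± 0.32 (SD, n = 4), a fold change of 1.48, with a rank product P of 0.000573 and an exact permutation p of 0.0286. It passed the P threshold and fell just short of the fold change of 1.5, so it was not called. Without the PNY array of 1 day, which stood apart in thymocyte genes, the mean difference was 0.63, and without the SHAM array of 7 days it was 0.64. Each of these passed both thresholds, whereas without PNY of 7 days it was 0.45, without SHAM of 3 days 0.46 and without SHAM of 1 day 0.49, none of them called, so the call depends on which arrays are taken.

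A second Adamts9 probe set, with a mean level of 5.32, was called, and is the only probe set of any member that was. It measured 5.66, 5.74, 5.56 and 5.68 in PNY against 4.91, 4.79, 4.52 and 5.72 in SHAM. PNY was even over time, and SHAM was lower at the first 3 times and level with PNY at 7 days. On average this probe set differed by 0.68 ± 0.49 (SD, n = 4), a fold change of 1.60, with a rank product P of 0.000115. The study's own list gives Adamts9 and Adamts2 as 1.6-fold higher in PNY and names no probe set. The other dim probe set, at a mean level of 5.07, gave a mean difference of 0.26. By these dim probe sets PNY and SHAM overlap, with exact permutation p of 0.114 and 0.0571.

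Adamts1, which cuts aggrecan and versican and is known as an early gene of inflammation and growth, was the steadiest. It measured 9.66, 9.52, 9.99 and 10.14 in PNY, against 9.33, 8.99, 9.32 and 9.63 in SHAM. PNY was higher at every time by 0.33 to 0.67, and the groups overlap only because SHAM at 7 days reached the level of PNY at 1 day. The mean difference was 0.51 ± 0.14 (SD, n = 4), a fold change of 1.42, with a rank product P of 0.00109 and an exact permutation p of 0.0571. In limma with a block for time its adjusted p was 0.618 (0.000453 unadjusted). The mean difference was 0.61 without the PNY array of 1 day and 0.61 without the SHAM array of 7 days, and Adamts1 was then called. It was not called without any other array, with 0.40 without SHAM of 1 day, 0.41 without PNY of 7 days and 0.46 without PNY of 3 days.

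Adamts8, another ADAMTS that lies beside Adamts15 on chromosome 9, was level at 6 hours and parted from 1 day on. It measured 7.47, 7.54, 7.63 and 7.84 in PNY against 7.48, 6.85, 7.10 and 7.49 in SHAM. SHAM dipped at 1 and 3 days, while PNY did not. Adamts8 had a mean difference of 0.39 ± 0.30 (SD, n = 4), with a rank product P of 0.00625 and an exact permutation p of 0.0857.

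Adamts4, the aggrecanase, lay below the median level and is named for its time course below. It measured 6.64, 5.68, 5.63 and 5.84 in PNY against 6.66, 5.33, 4.69 and 5.43 in SHAM, level at 6 hours and higher in PNY by 0.94 at 3 days, with a mean difference of 0.42 ± 0.39 (SD, n = 4) and a rank product P of 0.00108. A second Adamts4 probe set, at a mean level of 4.80, gave -0.10, 0.08, 0.38 and 0.63 from 6 hours to 7 days. Its widest difference was thus at 7 days, and its mean difference was 0.25. Adamts5, the other aggrecanase and the neighbour of Adamts1 on chromosome 16, was higher in PNY at 6 hours by 0.56 and then within 0.18 of SHAM either way. Its other probe sets did not show that gap as widely, with 0.27, 0.05 and -0.09 at 6 hours. Adamts16 had a mean difference of -0.12 ± 0.21 (SD, n = 4). The mean of 6 smooth muscle genes lay between 9.86 and 9.95 in PNY and between 9.47 and 9.75 in SHAM without overlap, and its part in the ADAMTS values was not tested.

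**Figure D3:**
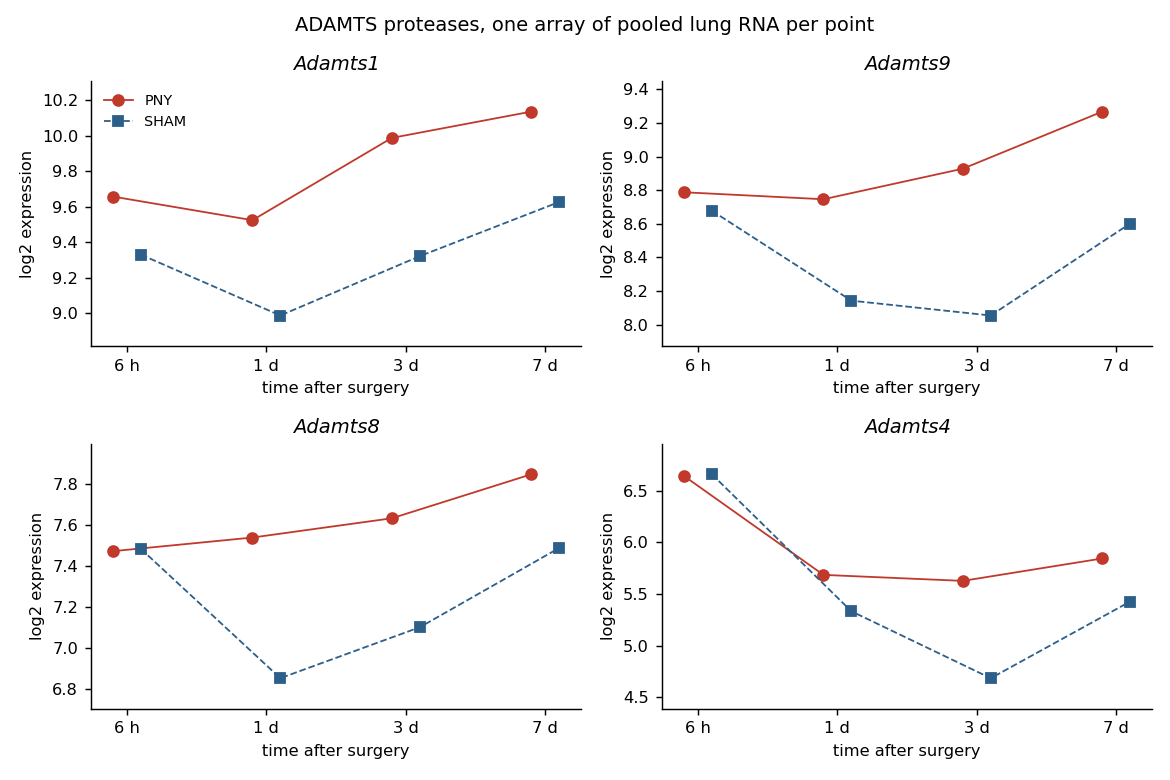
Log2 expression of Adamts1, Adamts9, Adamts8 and Adamts4 (y axis, own scale in each panel) against time after surgery. Red circles are PNY and blue squares SHAM, each point 1 array of pooled lung tissue. From 1 day on every PNY point lies above the SHAM point of its time, and at 6 hours Adamts8 and Adamts4 coincide (7.47 against 7.48 and 6.64 against 6.66).

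The stretches before the starts of Adamts1 and Adamts9 are shown because these genes had the widest mean differences of the family. They are the 150 bases before the start in the RefSeq promoters (GRCm38.p6), 5′ to 3′ on the minus strand, and the capitals mark GC boxes (GGGCGG, or CCGCCC on the other strand) and TATAAA, searched on the gene's strand only:
Adamts1, chr16:85803114-85803263: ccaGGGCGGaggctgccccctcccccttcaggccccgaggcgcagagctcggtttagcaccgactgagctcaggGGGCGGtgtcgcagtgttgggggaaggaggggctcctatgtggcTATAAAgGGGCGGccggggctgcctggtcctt
Adamts9, chr6:92943535-92943684: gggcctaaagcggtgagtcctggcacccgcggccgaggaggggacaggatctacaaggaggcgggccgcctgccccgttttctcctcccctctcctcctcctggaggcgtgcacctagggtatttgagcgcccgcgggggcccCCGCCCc

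The Adamts1 stretch holds 3 GC boxes and a TATAAA whose first base is 32 bases before the start, and the Adamts9 stretch holds 1 GC box and no TATAAA. Both are rich in G and C, at 69.3% and 71.3%. In the full window of 250 bases a GC box stands in 32.7% of all promoters and in 15 of the 37 member genes found there, and TATAAA stands in 7.59% of all promoters and in 8 of the 37. None of the 10 cluster genes on chromosome 9 has a GC box in that window, and 7 of them have TATAAA. Neither Adamts1 nor Adamts9 holds the AP-1 letters there.

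Of the inhibitors, Timp1, a secreted inhibitor that injury and inflammation are known to induce, measured 9.58, 9.78, 9.82 and 9.0 in PNY against 9.15, 9.83, 9.08 and 8.71 in SHAM. PNY stayed high to 3 days, whereas SHAM had a peak at 1 day, where the surgeries were level. Timp1 had a mean difference of 0.35 ± 0.33 (SD, n = 4), a fold change of 1.28, with a rank product P of 0.00399 and an exact permutation p of 0.371. It was 0.19 without the SHAM array of 7 days, 0.57 without that of 1 day, 0.53 if PNY of 7 days was left out and 0.23 if the pair of 3 days was. At 3 days the difference was 0.74.

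Timp2, which also takes part in the activation of Mmp2 at the cell surface, was flat. Its 4 PNY arrays lay between 11.94 and 12.14 and its 4 SHAM arrays between 11.92 and 12.17, with a mean difference of -0.03 ± 0.12 (SD, n = 4). Timp3, which is bound to the matrix and also inhibits Adam17, measured 12.78, 12.08, 12.04 and 12.13 in PNY against 12.57, 12.16, 12.05 and 11.92 in SHAM, with the 6-hour arrays high in both and a mean difference of 0.08 ± 0.15 (SD, n = 4). Timp4 measured 6.12, 5.85, 6.19 and 6.01 in PNY against 6.59, 5.95, 6.16 and 6.03 in SHAM, close to the median level of all probe sets. Its widest difference was -0.47 at 6 hours, and its mean difference was -0.14 ± 0.23 (SD, n = 4), or -0.0062 without the SHAM array of 6 hours. The other Timp4 probe set, with a mean level of 5.77, lay the other way at each time, by 0.19, 0.49, 0.05 and 0.10, so that no direction can be given for Timp4.

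**Figure D4:**
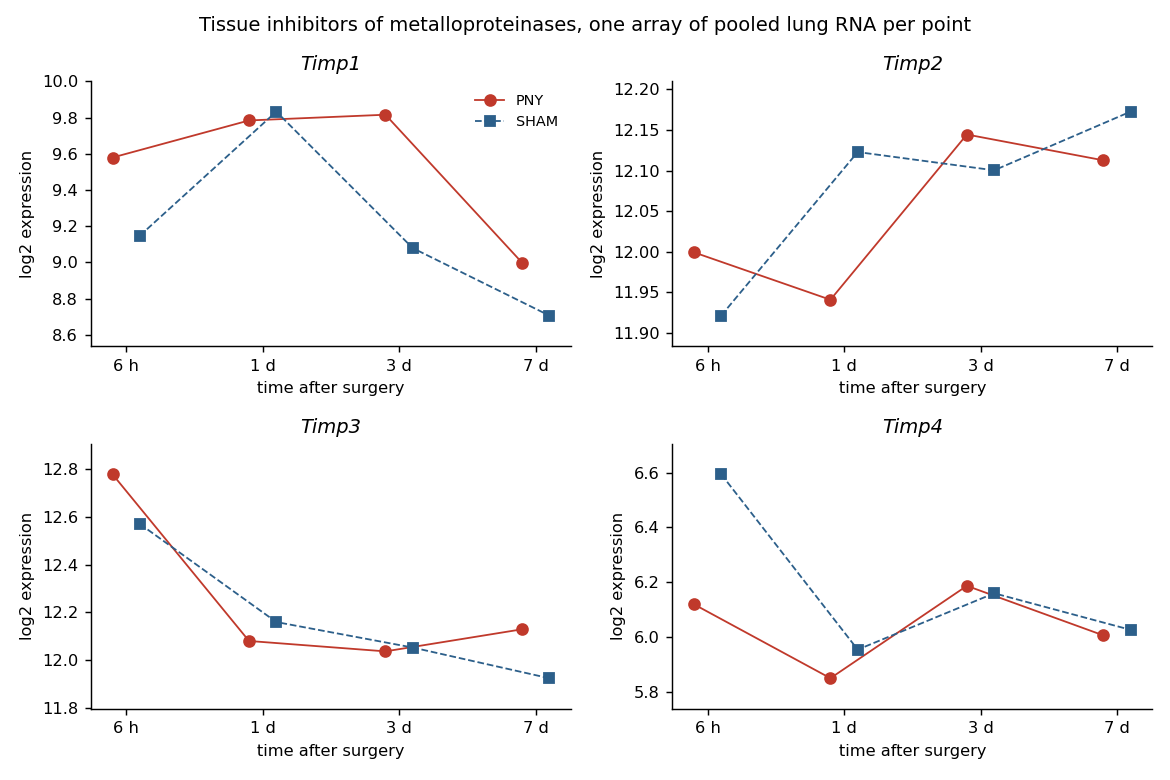
Log2 expression of the 4 TIMP genes (y axis, own scale in each panel) against time after surgery. Red circles are PNY and blue squares SHAM, each point 1 array of pooled lung tissue. Timp1 lies at 9.82 in PNY and 9.08 in SHAM at 3 days, Timp2 stays between 11.92 and 12.17, and Timp3 is highest at 6 hours in both surgeries.

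More members were called for time after surgery than for the kind of surgery. In a fit with surgery and time point as terms, the time points differed for 6 members by limma's F test (adjusted p under 0.05), and for 4.04% of all genes. These were Mmp8, Mmp11, Mmp13, Adam8, Adamts4 and Adamts15. Against 6 hours, the later times together (1, 3 and 7 days) were higher for 4 members, Mmp11, Mmp13, Adam17 and Adamts10, as for 7.72% of all genes, and lower for 7, Mmp8, Adam7, Adam8, Adamts3, Adamts4, Adamts15 and Timp3, as for 3.5% of all genes. The members called were thus 6.15% and 10.8% of the 65. Mmp13, Adam7, Adamts3 and Adamts4 lie below the median level and are named because they were called. The day of surgery and of the array cannot be told apart from the time point, and there were only 2 arrays at 6 hours.

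Mmp8, the collagenase that neutrophils carry, changed most. Its later arrays lay between 6.93 and 7.38 in both surgeries, against 9.60 in PNY and 9.21 in SHAM at 6 hours. Both 6-hour arrays lay far above the other 6, and the surgeries differed little within a time. The later mean fell by 2.32 on the log2 scale (SE 0.14, adjusted p = 0.000459 by limma). The neutrophil genes were also higher at 6 hours, where their mean was 9.17 in PNY and 8.98 in SHAM, against 8.12 to 8.81 later. Of the 10 only Cxcr2 passed the same test, and the part of these cells in the Mmp8 values was not tested.

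Adam8, a sheddase of leukocytes, went the same way by less. It measured 7.28, 7.37 and 7.43 in PNY and 7.00, 7.26 and 7.42 in SHAM at 1, 3 and 7 days, against 7.90 in PNY and 7.95 in SHAM at 6 hours. The later arrays were all lower, by 0.63 on average (later minus 6 hours -0.63, SE 0.10, adjusted p = 0.0113 by limma). Adamts15, which cuts versican, was -0.95 (SE 0.11, adjusted p = 0.00374), with 9.44 in PNY and 9.20 in SHAM at 6 hours and every later array between 8.17 and 8.57. Adamts4 was -1.21 (SE 0.17, adjusted p = 0.00624), with its lowest level on either side at 3 days, 5.63 in PNY and 4.69 in SHAM. A second Adamts4 probe set was called the same way, at -1.32, but was lowest at 1 day in PNY and at 7 days in SHAM.

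Timp3 was -0.61 (SE 0.10, adjusted p = 0.0133), with later arrays between 11.92 and 12.16 against 12.78 in PNY and 12.57 in SHAM at 6 hours. Its 3 other probe sets were called the same way, at -0.71, -0.71 and -0.98. Adam7 and Adamts3 were -0.54 and -0.51 at low levels. A second, dimmer Adamts3 probe set gave -0.18 and was not called. Timp3 was the one inhibitor called, and Timp1, Timp2 and Timp4 had later minus 6 hours values of 0.01, 0.14 and -0.33.

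Higher at the later times was Mmp11, stromelysin 3, which is secreted in active form by stromal cells of remodelling tissue. It measured 7.96, 8.30 and 8.31 in PNY and 7.88, 8.20 and 8.07 in SHAM at 1, 3 and 7 days, against 7.15 in PNY and 6.61 in SHAM at 6 hours. The later mean was higher by 1.24 (SE 0.12, adjusted p = 0.00187), a fold change of 2.36, and all 6 later arrays lay above both early ones. Adamts10, which binds fibrillin microfibrils, was higher later by 0.61 (SE 0.11, adjusted p = 0.0156), and Adam17, which frees TNF and ligands of the EGF receptor, by 0.51 (SE 0.09, adjusted p = 0.0179). Adam17 stood at 9.03, 9.29 and 9.36 in PNY and at 9.01, 9.10 and 9.34 in SHAM, against 8.74 in PNY and 8.63 in SHAM at 6 hours, nearly the same course in both surgeries. Other Adam17 probe sets gave 0.46, which was called, and 0.37, which was not (adjusted p = 0.124 by limma). A second Adamts10 probe set, at a low level, gave 0.34 and was not called (adjusted p = 0.0997 by limma).

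Mmp13, a collagenase, was higher later by 0.57 (SE 0.13, adjusted p = 0.0387) at very low levels. It stood apart at 7 days, with 4.38 in PNY and 4.42 in SHAM against 2.98 to 3.62 on the other 6 arrays. The call was lost without either 6-hour array (adjusted p = 0.262 for PNY and 0.125 for SHAM), and also without PNY of 3 days (0.0698), PNY of 7 days (0.07), SHAM of 1 day (0.0637) or SHAM of 7 days (0.0685). Mmp8 and Mmp11 were called also when either 6-hour array was left out. Without the PNY array of 6 hours Adamts4 was the one other member still called, with an adjusted p of 0.042, and Adamts15 was when SHAM of 6 hours was left out, with an adjusted p of 0.0275.

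**Figure D5:**
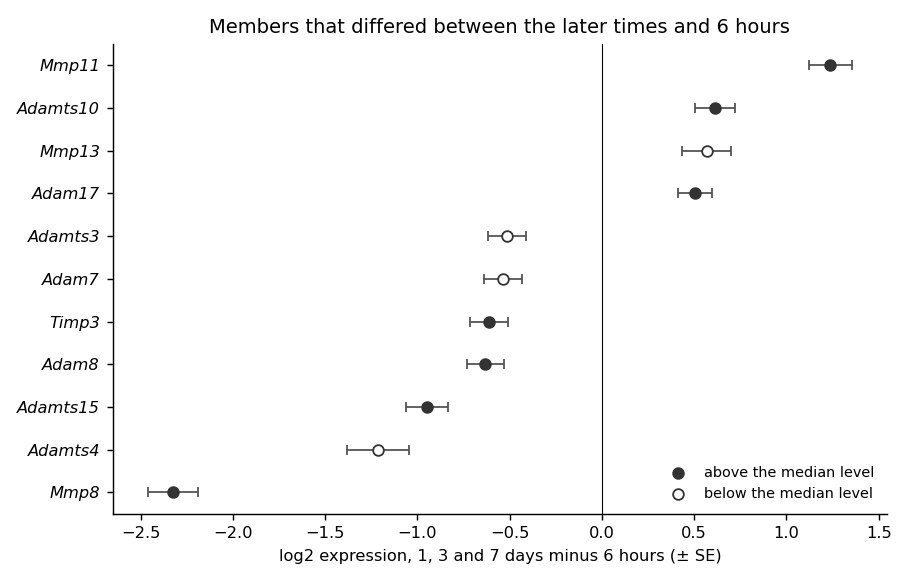
Difference in log2 expression between the 6 arrays of 1, 3 and 7 days and the 2 arrays of 6 hours (x axis, with its standard error as bars) for the 11 members with an adjusted p under 0.05, filled above and open below the median level. The values run from -2.32 for Mmp8 to 1.24 for Mmp11, with 7 members lower and 4 higher at the later times.

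Genes that work with these proteases were followed as lists. Each gene was read by its brightest probe set only, so a call through another probe set is not counted. Of all genes 0.5% were called higher in PNY by rank products, a share at which lists this short may hold no call. Of 14 relatives in the wider metzincin group and the ADAMTS-like proteins, 1 was called higher in PNY by rank products, Pappa2, a protease that frees insulin-like growth factors, which lies at a low level and is named because it was called, with a mean difference of 0.88 ± 0.40 (SD, n = 4). Adamtsl2, an ADAMTS-like protein of the fibrillin microfibril, was 9.56, 9.35, 9.21 and 9.64 in PNY and 9.28, 8.99, 8.77 and 9.10 in SHAM, higher in PNY at each time and not called (0.41 ± 0.11, SD, n = 4). Of 11 genes listed as inhibitors other than TIMPs, among them the procollagen proteinase enhancers Pcolce and Pcolce2, none were called. The widest there were Thbs1, thrombospondin 1, with 0.54 ± 0.37, and Tfpi2, which inhibits serine proteases, with 0.47 ± 0.45 (SD, n = 4).

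Of 26 genes listed under activation and traffic of these proteases, 0 were called between the surgeries. This list also holds Lrp1, an uptake receptor, and Timd4, a macrophage gene. Pcsk5, a proprotein convertase, had 0.40 ± 0.25 and Plat, the tissue plasminogen activator, 0.33 ± 0.23 (SD, n = 4). Of 22 measured substrates of Adam17 and Adam10, 0 were called. Hbegf, a growth factor shed by Adam17, measured 9.31, 10.20, 10.13 and 9.87 in PNY against 9.11, 9.26, 9.43 and 9.74 in SHAM, apart mainly at 1 and 3 days (0.49 ± 0.39, SD, n = 4). Il6ra, the interleukin 6 receptor that is shed from leukocytes, differed by -1.27 at 7 days and had a mean difference of -0.48 ± 0.57 (SD, n = 4).

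Of 11 genes listed as proteoglycan substrates of ADAMTSs, among them the matrix proteins Hapln1, Hapln3 and Comp, which are not proteoglycans, 0 were called. Vcan, versican, the substrate of Adamts1, Adamts4 and Adamts9, measured 6.34, 6.24, 6.31 and 6.69 in PNY against 6.22, 5.92, 5.24 and 5.94 in SHAM. All PNY arrays lay above all SHAM arrays, with a mean difference of 0.57 ± 0.42 (SD, n = 4), a fold change of 1.48 and a rank product P of 0.000737, under the P threshold and just short of the fold change. Of 9 procollagens and fibre proteins, Eln, elastin, the substrate of Mmp12, was called, with 11.03, 11.32, 11.74 and 12.45 in PNY against 10.61, 10.87, 11.04 and 11.43 in SHAM and a mean difference of 0.65 ± 0.27 (SD, n = 4). The median difference of these 9 genes was 0.42, beside 0.01 for all genes, and the other 8 were not called. The study's own list, at the same thresholds, holds genes not called here. Among them are Col3a1, Col5a2, Vcan, Thbs1 and Hbegf, each reported as 1.5-fold higher in PNY. Of the protease family itself that list holds Adamts9 and Adamts2, as given above. Against 6 hours, the later times were higher for 7.72% of all genes. They were higher for 1 of the 14 relatives, 2 of the 11 genes on the inhibitor list (Tfpi2 and the enhancer Pcolce) and 2 of the 26 on the activator list. They were also higher for 4 of the 22 substrates of Adam17 and Adam10, 0 of the 11 genes on the proteoglycan list and 4 of the 9 fibre genes. The later times were lower for 1 activator (Plat), 1 substrate of the sheddases (Il6ra) and 1 fibre gene (Col4a1), and for 3.5% of all genes. Between the surgeries, 0 genes of these lists were called lower in PNY, beside 0.0605% of all genes.

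By likeness of the 8 values over the arrays, taken as Pearson's r among 12150 other genes above the median level, the genes nearest to Adamts9 were Spry4 (0.97), Cilp (0.95), Adamts8 (0.95), Dbf4 (0.94) and Actg2 (0.94). The nearest to Timp1 were Krt18 (0.90), Tceal9 (0.89), Hyou1 (0.89), Stau2 (0.88) and Ldb3 (0.87). The closest member to Adamts9 was thus Adamts8, while that to Timp1 was Mmp19 with 0.62. These points share 8 arrays, the surgery and the time course, and the values are descriptions.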

How the data were processed

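RNA made from lung tissue pooled from 8 mice per array was measured on 8 Affymetrix Mouse Genome arrays. The authors made the deposited log2 values with RMA (background correction, quantile normalization and summarization to 1 value per probe set; version not given in the sources used here), which equalizes the arrays' distributions, so differences are relative to the bulk of genes. The precision is limited by how few arrays there are. Of 45101 probe sets the 64 controls were left out, and 45037 were tested; 34945 carry 1 gene symbol, 932 several and 9160 none, and names come from the first group. The mouse RefSeq gene table holds all 65 member symbols.

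PNY and SHAM were compared by rank products over 16 array pairs, with 1000 permutations (100 for the alternatives), P under 0.001 and at least a 1.5-fold difference, as in the study; the statistic was written in Python 3.11.15 (numpy 2.4.6, pandas 2.3.3) and tested on simulated data. limma 3.58.1 in R 4.3.3 gave the other tests over all probe sets, with Benjamini-Hochberg adjustment and a threshold of 0.05. The exact permutation test took the 70 ways to divide 8 arrays 4 and 4. Figures were drawn with matplotlib 3.10.9. The arrays have no repeats within a time point, and after each group's mean was taken off, same-time PNY and SHAM arrays correlated (r of 0.60, 0.36, 0.30 and 0.30 in order of time), so time point was also used as a block; the PNY array of 7 days correlated as well with the SHAM array of 3 days (0.34).

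Genes named are those called through any probe set or named by the study, the 4 of each subfamily with the widest mean difference, all Timp genes, the 2 furthest above and below SHAM at each time point, and the 8 with the smallest p of the time test, all but the first and the Timp genes above the median level; others are said to be so or stand in counts. The members and lists were chosen with earlier results of these data known. Alternatives were centring or quantile normalization of the arrays, a filter at the median level, other tests and thresholds, averaging the probe sets of a gene, and leaving out arrays or time points.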

Additional observations from a re-analysis of the deposited data

Results flagged for a closer look

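Within the 4 arrays of a surgery 1 array of a named member lay far from the other 3 in 3 of 50 groups looked at, and chance alone marks about 1 in 20 such groups. The PNY array of 6 hours had 9.60 for Mmp8, against 7.02 to 7.10 on the other PNY arrays. The PNY array of 6 hours had 12.78 for Timp3, against 12.04 to 12.13 on the others. The PNY array of 1 day had 6.02 for Adam28, against 6.26 to 6.28 on the others. In the first 2 cases the SHAM array of 6 hours was also the highest of its group, at 9.21 for Mmp8 and 12.57 for Timp3.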

How the results depend on the processing

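With 1 array per surgery and time point, the number of arrays limits what could be seen, and no value tells of the spread between mice. The count of members called higher in PNY by rank products, 0, was 1 with no minimum fold change (Adamts9) and ranged over 0 to 2 without 1 array or 1 time point. Adamts9 with Mmp12 passed without the PNY array of 6 hours or both 6-hour arrays, Adamts9 with Adamts1 without PNY of 1 day or SHAM of 7 days, and Adamts9 with Adamts4 without SHAM of 6 hours. With time point as a replicate block the count was 0 by limma and 0 by rank products over the paired arrays. The paired rank products used the same mean differences. No member reached a mean difference of 1.5-fold, so the pairing could not have added a call. The count called lower in PNY was 0 under all alternatives run. The time test called 14 members with a trended and robust prior, and 0 to 5 without 1 array, the 0 without PNY of 6 hours, 1 without SHAM of 6 hours and 3 without PNY of 7 days. Against 6 hours, 1 to 4 members were higher and 2 to 7 lower later without 1 array, the lowest counts without either 6-hour array, and 4 were lower with the filter at the median level, which tests fewer genes. Past 1.5-fold at single times, centring the arrays gave 2 higher and 0 lower at 6 hours and 1 higher (Adamts8, with Adamts9 and Adam23 lost) and 2 lower at 1 day. A fold of 2 left 0 lower at 6 hours, 0 higher and 0 lower at 1 day, 1 higher at 3 days (Mmp12) and 0 higher at 7 days. Averaging the probe sets of a gene gave 1 higher and 2 lower at 1 day and 1 higher at 7 days, and the median filter 0 lower at 1 day. The mean PNY minus SHAM turned sign without 1 array or time point for Mmp11 (-0.12 to 0.50), Mmp12 (-0.0383 to 0.68), Timp2 (-0.0826 to 0.0206) and Timp3 (-0.0948 to 0.211), and with the mean of all probe sets for Adam11 (-0.0135) and Timp4 (0.0326). The cause of these changes was not tested.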
